A study of Mus musculus with 13 samples.

Results

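The genes described here make and release glucose in the liver, or are switched by the hormone signal that drives this process. The set comprised 9 genes of the 27141 genes listed, chosen by symbol: pyruvate carboxylase (Pcx), the cytosolic and mitochondrial phosphoenolpyruvate carboxykinases (Pck1 and Pck2), fructose-1,6-bisphosphatase (Fbp1), the catalytic subunit of glucose-6-phosphatase (G6pc), the glucose-6-phosphate transporter (Slc37a4), the transcriptional coactivator PGC-1α (Ppargc1a), tyrosine aminotransferase (Tat) and serine dehydratase (Sds). All 9 passed the filter on low counts, among 19884 genes tested.

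RNA was sequenced from wild-type hepatocytes of C57BL/6 mice whose livers had been injured chronically with carbon tetrachloride (CCl4). These damaged hepatocytes (dHeps) were cultured for 16 days in serum-free Hepatocyte Maintenance Medium, which every group shared. The DMSO group received the solvent, and the 5C group received 5 compounds together: GSK429286A (G), an inhibitor of the kinase ROCK; CID755673 (C), an inhibitor of protein kinase D; ETC-1002 (E), described as an activator of AMPK; forskolin (F), which activates adenylate cyclase and so raises cAMP; and Salidroside (S), a plant glycoside. Each of 5C-G, 5C-C, 5C-E, 5C-F and 5C-S lacked the compound named by its letter, so 5C-F is the culture without forskolin. There were 2 libraries per group, called A and B, and 1 library for 5C-S, 13 in all, with 30195867 to 45491932 counts each. The letters follow the running numbers of the table columns, which the labels do not tie across groups, and the labels do not say whether the libraries of a group were separate cultures. The study's methods describe its replicates throughout as separate biological ones, and also call the RNA-seq experiments pooled, so p-values are taken to measure only the spread between these libraries.

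Gluconeogenesis runs from lactate and amino acids to free glucose. Pyruvate is carboxylated to oxaloacetate by Pcx, turned into phosphoenolpyruvate by Pck1 or Pck2, and carried back up the shared glycolytic steps to fructose-1,6-bisphosphate, which Fbp1 dephosphorylates, and G6pc with Slc37a4 releases glucose from glucose-6-phosphate inside the endoplasmic reticulum. In fasting, glucagon raises cAMP in hepatocytes, protein kinase A phosphorylates CREB, and CREB with its CRTC partners induces Ppargc1a, Pck1 and G6pc. Tat and Sds degrade tyrosine and serine, feed carbon into the pathway, and are classical targets of glucagon and glucocorticoids. A culture medium with cAMP raised by forskolin therefore bears on this set directly, and the comparison of cultures with and without forskolin asked whether its levels followed the compound.

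Sequences before the start sites of the 3 genes that CREB is best known to control are shown because they hold the letters of the cAMP response element or of a close variant. The motifs searched, on both strands, were TGACGTCA (the full palindrome), TGACG (its 5-base part, which lies inside the full palindrome and can overlap the variant) and TTACGTNA (the variant). The windows were the 250 bases before the start of the GENCODE canonical transcript on GRCm39. TGACGTCA was held by 1.7% of 21757 such windows, TGACG by 18% and TTACGTNA by 0.772%. The Pck1 window (chr2:172994591-172994840, plus strand) held the variant 68 to 61 bases before the start. In Ppargc1a (chr5:51711265-51711514, minus strand) the full palindrome lay 83 to 76 bases before the start. The canonical GENCODE start of G6pc gave no match, whereas the RefSeq start, listed on GRCm38.p6, gave the variant 162 to 155 bases upstream (chr11:101367466-101367715, plus strand), a motif present in 0.898% of 32851 RefSeq windows of 300 bases. Capitals mark the matched letters:
Pck1: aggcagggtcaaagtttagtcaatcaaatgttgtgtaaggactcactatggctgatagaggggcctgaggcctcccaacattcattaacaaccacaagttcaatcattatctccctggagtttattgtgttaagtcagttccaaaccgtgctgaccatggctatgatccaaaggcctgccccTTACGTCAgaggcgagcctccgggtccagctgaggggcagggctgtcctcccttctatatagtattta
Ppargc1a: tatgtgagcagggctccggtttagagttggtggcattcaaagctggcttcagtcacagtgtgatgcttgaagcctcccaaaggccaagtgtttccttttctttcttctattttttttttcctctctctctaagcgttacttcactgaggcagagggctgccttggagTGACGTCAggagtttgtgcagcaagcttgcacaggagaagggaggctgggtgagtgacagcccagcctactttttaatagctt
G6pc: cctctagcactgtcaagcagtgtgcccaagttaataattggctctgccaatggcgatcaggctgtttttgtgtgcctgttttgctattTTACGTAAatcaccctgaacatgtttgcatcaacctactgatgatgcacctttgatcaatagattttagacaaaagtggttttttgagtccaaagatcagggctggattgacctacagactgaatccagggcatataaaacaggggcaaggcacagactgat

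No motif was found in the GENCODE windows of Pck2, Fbp1, Pcx, Tat, Sds or Slc37a4, which says only that these letters are not in those windows. In the RefSeq table the windows of Slc37a4 held TGACG in 2 of 3 listed starts, and Ppargc1a was listed at another start, with TGACG alone, on the other strand. Counts were summed per gene, so transcripts from alternative starts of Ppargc1a were not separated. The motifs were chosen with the sequences in view, and a match is a description of letters, not of CREB binding.

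Levels are given as FPKM, fragments per kilobase of transcript scaled to the size of the library, which allows genes to be set side by side. Fbp1, at 25.0 to 73.2 FPKM over the 13 libraries, or Tat, at 10.2 to 81.3, had the highest mean of the set in each group. In 5C-G, 5C-C and 5C-E the mean of Tat (13.2, 12.7 and 12.9 FPKM) lay below those of Pck2 (18.4, 20.0 and 16.4) and Pcx (13.5, 19.9 and 17.7), and in 5C-C also below that of Slc37a4 (16.5). Pck2 (13.5 to 21.3), Pcx (13.2 to 30.2) and Slc37a4 (11.2 to 23.6) were intermediate. Pck1 lay at 1.16 to 6.61 FPKM, G6pc at 0.218 to 2.18, Ppargc1a at 0.0581 to 0.895 and Sds at 0.0259 to 0.678. The genes with the best known cAMP response elements were thus among the least abundant of the set in these cultures. Cytosolic Pck1 made up 5.25% to 31.8% of the summed FPKM of Pck1 and Pck2, so the mitochondrial isoenzyme was the more abundant transcript in every library.

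**Figure D1:**
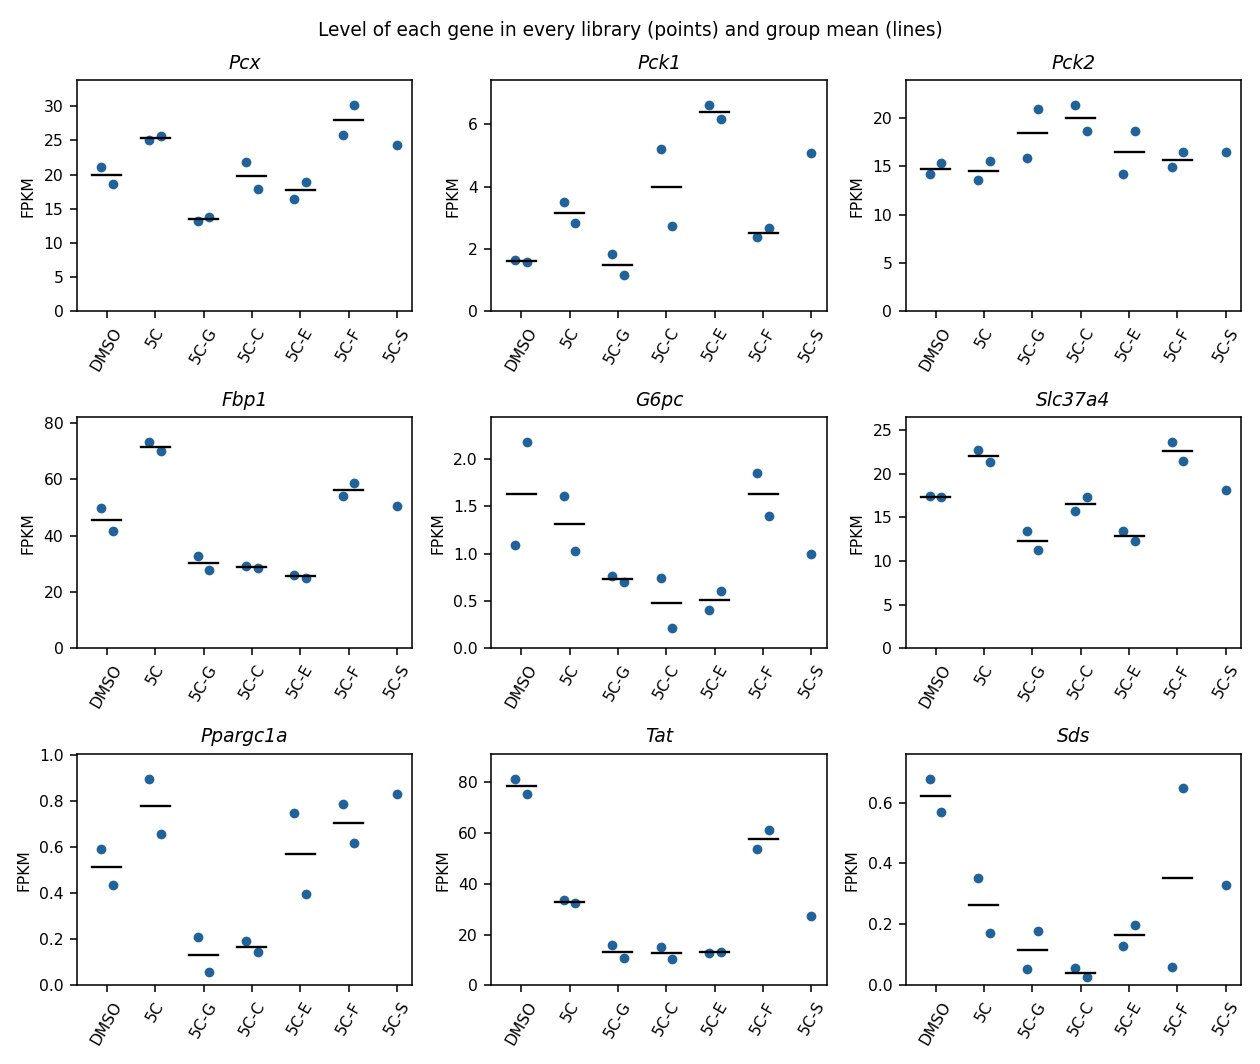
FPKM of the 9 genes in each of the 13 libraries, by group, with 1 point per library and a line at the mean of groups with 2 libraries; each panel has its own linear axis from 0. Tat, Fbp1, G6pc and Slc37a4 were lower in 5C-G, 5C-C and 5C-E than in 5C-F, and Pck1 was highest in 5C-E, with 6.61 and 6.15 FPKM.

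Tat was the one member called changed by the whole cocktail, and it fell. Tat had 81.3 and 75.4 FPKM in DMSO and 33.6 and 32.3 FPKM in 5C, a log2 fold change of -1.32 ± 0.19 (SE; adjusted p = 0.000176, edgeR's quasi-likelihood test with Benjamini-Hochberg adjustment over all genes tested). The libraries did not overlap, and the group means were 78.4 ± 4.2 and 33.0 ± 0.91 FPKM (SD, n = 2). A call here needs an adjusted p under 0.05 and a change of more than 2-fold. By that rule 1 of 9 members was lower and 0 were higher in 5C, where 2.89% of all genes tested were called lower and 1.66% higher. Fbp1 stood at 49.8 and 41.6 FPKM in DMSO and at 73.2 and 69.9 in 5C. Its log2 difference of 0.57 ± 0.16 passed the adjusted p alone (edgeR, 0.0425). Without a filter on low counts that pass was lost (adjusted p = 0.0562, edgeR). Leaving out 1 library gave Fbp1 differences of 0.45 to 0.72. Pck1 was at 1.63 and 1.57 FPKM in DMSO and at 3.50 and 2.82 in 5C, with a log2 difference of 0.90 ± 0.29 that missed the threshold (adjusted p = 0.0788, edgeR). The median log2 difference of the 9 genes was 0.26, against 0.01 over all genes.

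For the other members the 95% intervals of the log2 difference between 5C and DMSO all held 0. That of Pck2 was narrow, from -0.52 to 0.33, while that of Sds ran from -3.76 to 1.13. G6pc (96 and 164 counts in DMSO, 130 and 76 in 5C) overlapped between the groups. Macrophage markers moved with this comparison: 7 of 8 fell in 5C against DMSO, from a summed 4968 to 5017 FPKM in DMSO to 510 to 599 FPKM in 5C. Summed hepatocyte markers were at 10466 to 11689 and 10824 to 10861 FPKM, and none of the 7 measured was called. Of 7 stellate cell and fibroblast markers, Lrat (3.19) and Pdgfra (1.36) rose and Des (-1.13) fell, with sums of 725 to 784 FPKM in DMSO and 771 to 776 in 5C, and the cholangiocyte marker Epcam rose (3.24). The part of these signals in the members' values was not tested. In bulk RNA, fewer cells of a type cannot be told apart from less RNA per cell.

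**Figure D2:**
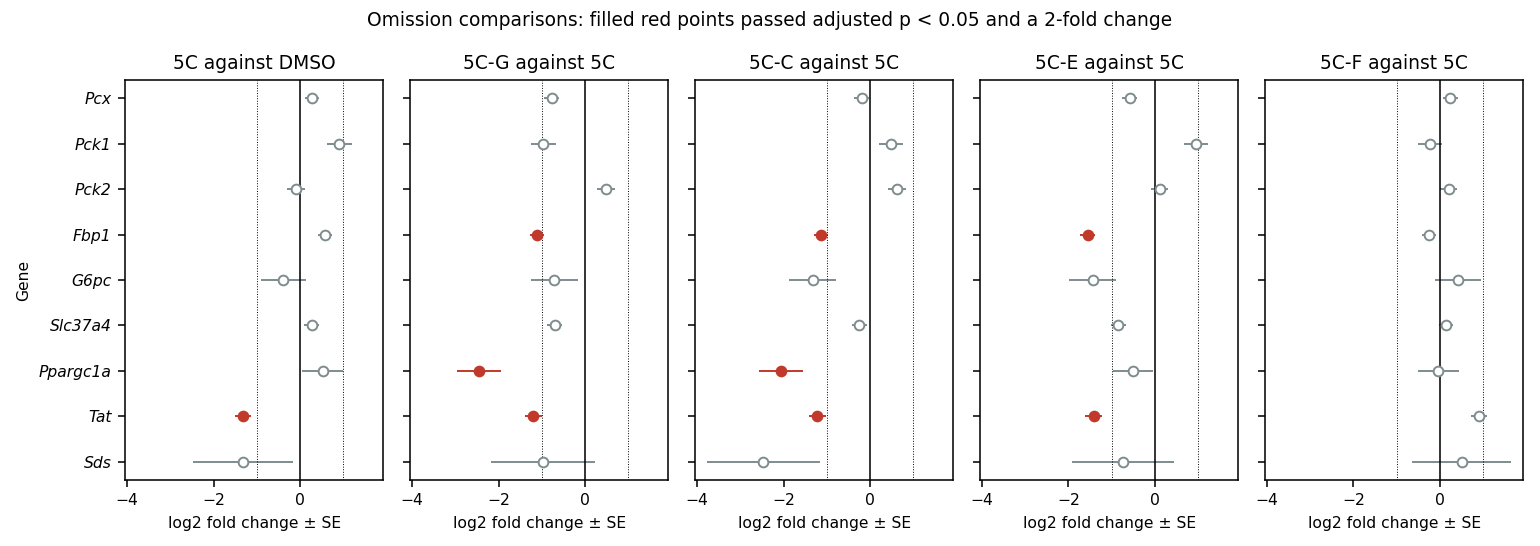
Log2 fold change ± SE of the 9 genes in 5C against DMSO and in each replicated omission against 5C, from the edgeR fit; dotted lines mark a 2-fold change and filled red points passed both limits. Tat and Fbp1 are red in 5C-G, 5C-C and 5C-E, Ppargc1a in 5C-G and 5C-C, and none is red in 5C-F.

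Leaving out the ROCK inhibitor, the protein kinase D inhibitor or ETC-1002 lowered the enzyme genes Tat and Fbp1 in each case. Tat, at 33.6 and 32.3 FPKM in 5C, measured 15.8 and 10.7 FPKM in 5C-G, 15.1 and 10.2 in 5C-C, and 12.8 and 13.1 in 5C-E. Its log2 fold changes against 5C were -1.20 ± 0.19, -1.22 ± 0.19 and -1.42 ± 0.19 (adjusted p = 0.000313, 0.00019 and 0.000306, edgeR). Without library 5C-C B the Tat difference in 5C-C was -0.99, just inside the 2-fold limit, at an adjusted p of 0.00468. Fbp1, at 73.2 and 69.9 FPKM in 5C, measured 32.8 and 27.7 FPKM in 5C-G, 29.2 and 28.7 in 5C-C, and 26.1 and 25.0 in 5C-E. The corresponding log2 fold changes were -1.11 ± 0.16, -1.14 ± 0.16 and -1.56 ± 0.17 (adjusted p = 0.000145, 9.6e-05 and 2.62e-05, edgeR). No library of these 3 omission groups reached the level of any 5C library for either gene. All 3 comparisons share the 5C libraries.

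Ppargc1a, the coactivator that links cAMP to the gluconeogenic genes, fell in 5C-G and 5C-C. It had 198 and 133 counts in 5C, 44 and 14 in 5C-G, and 38 and 43 in 5C-C, equal to 0.895 and 0.657, 0.207 and 0.0581, and 0.191 and 0.143 FPKM. The log2 fold changes were -2.46 ± 0.51 in 5C-G and -2.06 ± 0.50 in 5C-C (adjusted p = 0.00219 and 0.00388, edgeR). The size of the fall in 5C-G rested on the spread of its libraries: it was -3.50 without 5C-G A and -1.86 without 5C-G B, called in both cases (adjusted p = 0.000514 and 0.0358). With the offset for GC content and gene length the difference in 5C-C was -1.29, still called. On log2(FPKM + 1) the same differences shrank to -0.65 and -0.60 and were not called, since adding 1 understates the change of a gene under 1 FPKM. In 5C-E the gene had 179 and 85 counts, overlapping 5C, with a log2 difference of -0.51 ± 0.47 (adjusted p = 0.684, edgeR).

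Pck1 lay below 5C in 5C-G, as Tat and Fbp1 did, but not in 5C-E. Its 826 and 689 counts in 5C-E (6.61 and 6.15 FPKM) were above the 403 and 297 counts of 5C, and its 202 and 145 counts in 5C-G (1.83 and 1.16 FPKM) were below them. The log2 differences from 5C were 0.95 ± 0.28 in 5C-E (adjusted p = 0.0904, edgeR) and -0.96 ± 0.29 in 5C-G (adjusted p = 0.0209, edgeR), neither of which was called. The difference in 5C-G lay close to the 2-fold limit and was called under 8 of 15 alternatives. It was called on total counts (-1.08), without a filter on low counts (-1.02), with 10 counts required in every library (-1.03), with an offset for GC content and gene length (-1.17), by limma on log2(FPKM + 0.1) (-1.06), by the adjusted p alone, without library 5C B (-1.14, adjusted p = 0.0423) and without 5C-G A (-1.22, adjusted p = 0.014). The adjusted p rose to 0.148 without 5C A and to 0.19 without 5C-G B. In 5C-C both libraries, at 5.21 and 2.74 FPKM, spanned the 5C values, with a log2 difference of 0.49 ± 0.28. Pck2, the mitochondrial isoenzyme, was at 21.3 and 18.6 FPKM in 5C-C against 13.5 and 15.5 in 5C, a log2 difference of 0.62 ± 0.20 that passed the adjusted p (0.0229, edgeR) but not the 2-fold limit.

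G6pc, which completes the pathway, was lower in all 3 of these groups without passing both limits in any. Against 130 and 76 counts in 5C, it had 59 and 62 counts in 5C-G, 54 and 24 in 5C-C, and 36 and 48 in 5C-E. The log2 differences were -0.71 ± 0.53, -1.33 ± 0.55 and -1.44 ± 0.54 (adjusted p = 0.363, 0.0683 and 0.206, edgeR). No library of the 3 groups reached the lower 5C library. Leaving out library 5C-C A gave a called difference of -2.37 in 5C-C (adjusted p = 0.00736), and leaving out 5C-C B gave -0.69. The 5C-C difference was also called on total counts (-1.48, adjusted p = 0.047, edgeR), without a filter on low counts (-1.31, adjusted p = 0.0457, edgeR) and by limma on log2(FPKM + 0.1) (-1.42, adjusted p = 0.0472).

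Its partner Slc37a4 was at 13.4 and 11.2 FPKM in 5C-G and 13.4 and 12.3 in 5C-E, against 22.7 and 21.3 in 5C. These log2 differences of -0.71 ± 0.17 and -0.85 ± 0.17 passed the adjusted p (0.00605 and 0.01, edgeR) but not the 2-fold limit. Pcx, which starts the pathway, was at 13.2 and 13.8 FPKM in 5C-G against 25.0 and 25.6 in 5C, a log2 difference of -0.77 ± 0.17 (adjusted p = 0.00354, edgeR). Corrected for GC content and gene length this became -1.12 and was called. Some exon bases of Pck2 (with Gm10876), Pcx (Lrfn4 and Rce1), Sds (Gm15690 and Plbd2) and Slc37a4 (Trappc4) are shared with genes on the other strand. The library kit does not mark strand, so reads on those shared bases cannot be told apart. How many reads lie there was not measured.

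In total, 3 of 9 members were called lower in 5C-G, 3 in 5C-C and 2 in 5C-E, and 0 were called higher. Over all genes tested, 5.64% were called lower and 7.47% higher in 5C-G, 10.5% lower and 9.65% higher in 5C-C, and 1.31% lower and 0.654% higher in 5C-E. The median log2 difference of the members was -0.96, -1.14 and -0.74, with medians of all genes of -0.01, 0 and 0.01. Sds had few counts in these groups and was not called in any: 3 and 11 in 5C-G, 3 and 2 in 5C-C, and 8 and 11 in 5C-E. The ratio of 5C to 5C-C per total count was 6.84, with a 95% exact interval of 2.62 to 22.6 for counting error only, which leaves out the spread between libraries.

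Other hepatocyte genes moved in the same 3 comparisons. Of the 7 measured hepatocyte markers, 4 fell in each of 5C-G, 5C-C and 5C-E, among them the urea cycle enzyme Cps1 in all 3, with log2 fold changes of -2.68, -2.19 and -1.68, and Apoa1 rose in 5C-G (1.63). Their summed level was 6400 to 7709 FPKM in 5C-G, 4556 to 4957 in 5C-C and 3033 to 3534 in 5C-E. Macrophage markers rose in 5C-G (7 of 8, summed to 5052 to 7179 FPKM) and in 5C-C (4 of 8, 1008 to 1708 FPKM), and 0 of 8 were called in 5C-E (712 to 849 FPKM). Stellate cell and fibroblast markers summed to 1410 to 1854 FPKM in 5C-G, 753 to 889 in 5C-C and 886 to 1050 in 5C-E, against 771 to 776 in 5C. Within these sums single markers moved in opposite directions. In 5C-G Des (2.64) and Acta2 (2.11) rose while Pdgfra (-2.02) and Lrat (-1.89) fell. In 5C-C Des rose (1.25) while Acta2 (-2.36), Lrat (-1.85) and Pdgfra (-1.43) fell, and in 5C-E Des rose (1.05) while Acta2 fell (-2.32). The cholangiocyte markers Epcam (-2.20) and Sox9 (-1.46) fell in 5C-G, and Krt19 rose in 5C-C (1.68). The endothelial marker Kdr fell in 5C-G (-1.01) and rose in 5C-E (1.11). The share of these cell type signals in the members' differences was not tested.

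**Figure D3:**
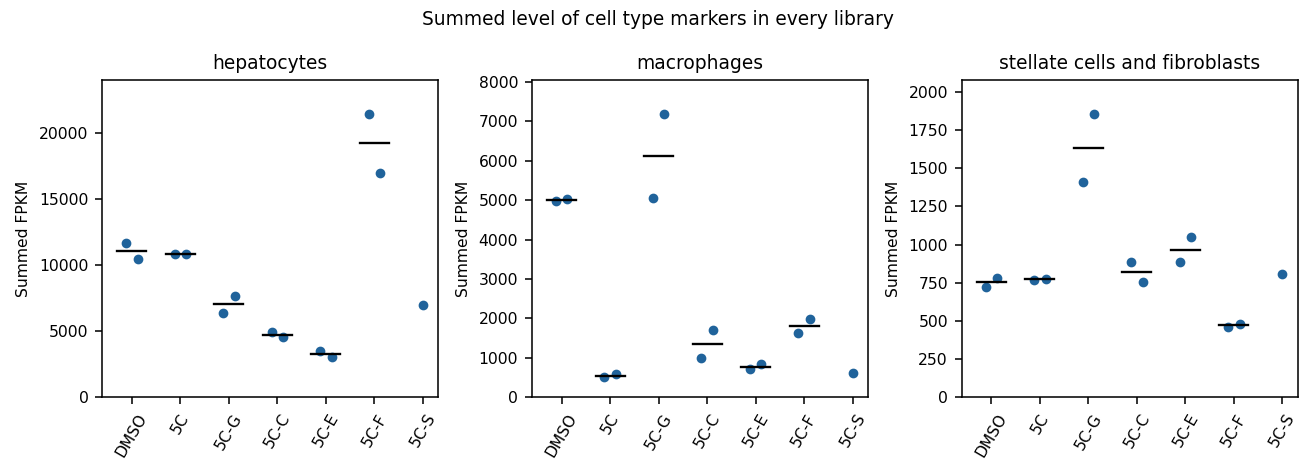
Summed FPKM of the markers of hepatocytes (7 genes), macrophages (8) and stellate cells and fibroblasts (7) in each library, by group, on linear axes from 0, with lines at the means of groups with 2 libraries. Hepatocyte markers were highest in 5C-F, at 17023 to 21436 FPKM, and macrophage markers were at 4968 to 5017 FPKM in DMSO and 5052 to 7179 FPKM in 5C-G, above all other groups.

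Without forskolin, the compound that raises cAMP, no member was called lower than in 5C. Pck1 had 315 and 385 counts in 5C-F against 403 and 297 in 5C, a log2 difference of -0.23 ± 0.28 with a 95% interval of -0.82 to 0.37. For Ppargc1a the counts were 201 and 171 against 198 and 133, with a log2 difference of -0.04 ± 0.46 and an interval of -1.02 to 0.94. G6pc had 173 and 142 counts against 130 and 76, with a log2 difference of 0.41 ± 0.52 and an interval of -0.69 to 1.51. In FPKM, Pck1 at 2.37 and 2.67 lay below both 5C libraries, while Ppargc1a and G6pc overlapped between the groups. The intervals of Ppargc1a and G6pc leave room for changes near 2-fold or beyond. Tat was at 53.7 and 61.3 FPKM in 5C-F against 33.6 and 32.3 in 5C, a log2 difference of 0.90 ± 0.19 that passed the adjusted p (0.008, edgeR) but not the 2-fold limit. In limma on log2(FPKM + 1) and log2(FPKM + 0.1) the Tat difference missed the adjusted p (0.0527 and 0.0567). Leaving out 1 library gave Tat differences of 0.84 to 0.95. The Tat libraries of 5C-F lay between those of 5C and DMSO.

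By edgeR 0 of 9 members were called in 5C-F against 5C in either direction, against 2.69% of all genes higher and 2.15% lower; 1 member had an unadjusted p under 0.05, where 26% of all genes did, and DESeq2 and limma also called 0. The intervals of Pck2 (-0.22 to 0.63), Fbp1 (-0.59 to 0.09), Pcx (-0.12 to 0.60) and Slc37a4 (-0.22 to 0.50) held 0 and excluded a 2-fold change. Sds had 4 and 46 counts in libraries 5C-F A and 5C-F B, a spread that left its interval at -1.93 to 2.93. Hepatocyte markers Apoa1 and Ttr rose in this comparison, by 1.66 and 1.02 on the log2 scale, and 7 of 8 macrophage markers rose, to a summed 1637 to 1988 FPKM. The fibroblast marker Col1a2 fell (-1.55, adjusted p = 0.0135, edgeR) and the cholangiocyte marker Krt19 rose (1.07, adjusted p = 0.00249, edgeR). The part of these signals in the members' values was not tested.

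Set against the other omissions rather than against the full cocktail, 5C-F had higher levels of 4 members. This comparison of 5C-F with the mean of 5C-G, 5C-C and 5C-E contrasts no 5C or DMSO library, although these enter the shared estimate of the spread. The libraries of these omissions are those compared with 5C above, so its calls are not independent of the falls given there. Tat had 53.7 and 61.3 FPKM in 5C-F and 10.2 to 15.8 FPKM over the other 6 libraries, a log2 fold change of 2.18 ± 0.14 (adjusted p = 2.72e-08, edgeR). Fbp1 had 54.0 and 58.6 FPKM against 25.0 to 32.8, a log2 fold change of 1.02 ± 0.13 (adjusted p = 2.1e-05, edgeR). Ppargc1a had 201 and 171 counts against 14 to 179, with a log2 fold change of 1.64 ± 0.36 (adjusted p = 0.00497, edgeR), and its library 5C-E A overlapped 5C-F. G6pc had 173 and 142 counts against 24 to 62, with a log2 fold change of 1.57 ± 0.40 (adjusted p = 0.0142, edgeR).

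Pcx and Slc37a4 were higher in 5C-F by 0.76 ± 0.13 and 0.74 ± 0.13 on the log2 scale and passed the adjusted p (0.000774 and 0.00093, edgeR) but not the 2-fold limit. Pck1 and Pck2 lay on the other side of 0, at -0.38 ± 0.24 and -0.20 ± 0.16, with intervals of -0.88 to 0.11 and -0.55 to 0.15. So 4 of 9 members were called higher and 0 lower, where 3.76% of all genes were called higher and 2.78% lower; the members' median was 1.02 and that of all genes -0.01. Without library 5C-F A, G6pc (1.31, adjusted p = 0.221) and Ppargc1a (1.40, adjusted p = 0.114) were no longer called, which left 2 members. On total counts alone the Fbp1 difference was 0.999, just inside the limit, and limma on log2(FPKM + 1) called Tat alone. Of the hepatocyte markers 5 of 7 were also higher in 5C-F, Alb by 2.36, Cps1 by 2.11 and Ttr by 1.98 on the log2 scale, while 0 of 8 macrophage markers were called. Stellate cell and fibroblast markers summed to 463 to 482 FPKM in 5C-F, below the 753 to 1854 FPKM of the other 3 groups, with Des (-1.54), Col1a1 (-1.18) and Col1a2 (-1.10) lower and Lrat (3.16) higher. Of the cholangiocyte markers, Sox9 was higher (1.66). The part of these signals in the members' differences was not tested.

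**Figure D4:**
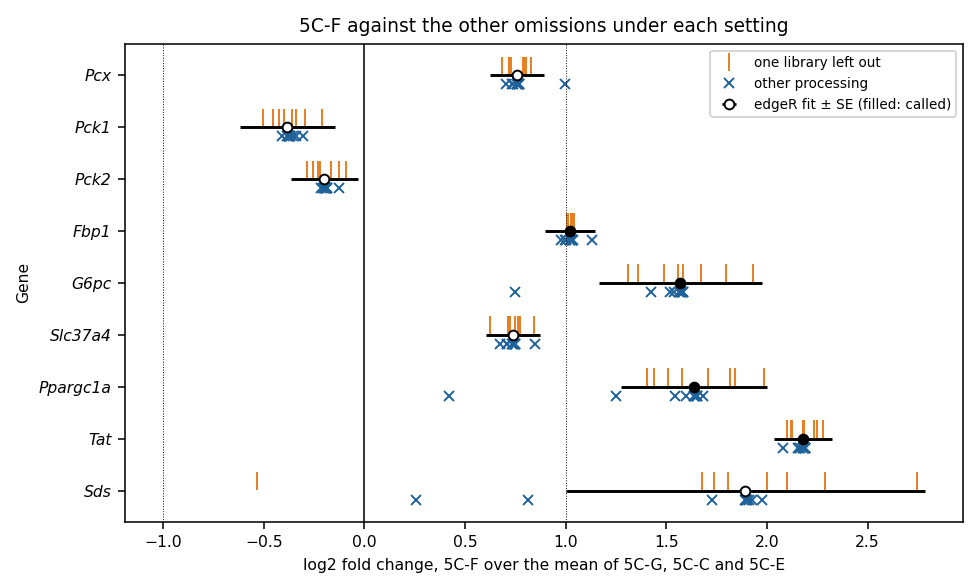
Log2 fold change of each gene in 5C-F over the mean of 5C-G, 5C-C and 5C-E from edgeR (circle ± SE, filled where called), with 1 library left out (orange ticks) and under other processing (blue crosses); dotted lines mark a 2-fold change. Tat lies between 2.08 and 2.28 throughout, whereas Sds ranges from -0.53 to 2.75.

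Placed against solvent, Tat was below DMSO in 5C-G, 5C-C and 5C-E, with log2 fold changes of -2.52 ± 0.20, -2.54 ± 0.20 and -2.74 ± 0.20 (adjusted p = 1.69e-06, 1.73e-07 and 1.45e-07, edgeR). In 5C-F its difference of -0.42 ± 0.19 was not called (adjusted p = 0.15). Pck1 rose over DMSO in 5C-C (1.39 ± 0.29, adjusted p = 0.00125, edgeR) and in 5C-E (1.85 ± 0.29, adjusted p = 0.000352, edgeR), where its 6.61 and 6.15 FPKM compare with 1.63 and 1.57 in solvent. Its log2 difference between 5C-G and DMSO was -0.06 ± 0.29, with an interval of -0.67 to 0.55. Without library 5C-C A the Pck1 difference in 5C-C was 0.92 (adjusted p = 0.0177) and fell short of 2-fold.

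Ppargc1a fell below DMSO in 5C-G (-1.94 ± 0.51, adjusted p = 0.0198, edgeR) and 5C-C (-1.54 ± 0.49, adjusted p = 0.0213, edgeR), and G6pc in 5C-C (-1.71 ± 0.55, adjusted p = 0.0208) and 5C-E (-1.82 ± 0.55, adjusted p = 0.0469). These calls depended on single libraries and on the processing. Ppargc1a in 5C-G was lost without DMSO A, DMSO B or 5C-G B (adjusted p = 0.151, 0.0701 and 0.229), and in 5C-C without DMSO A or 5C-C B (0.148 and 0.119). Without 5C-G A it was -2.98 in 5C-G, and without 5C-C A the G6pc difference in 5C-C was -2.75. G6pc in 5C-C was lost without DMSO B or 5C-C B (0.23 and 0.182), and in 5C-E without any 1 of the 4 libraries (0.0567 to 0.517). With the GC and length offset Ppargc1a in 5C-C stood at -0.88 (adjusted p = 0.139), and limma called neither Ppargc1a difference on either FPKM scale. In the fit of only the groups compared, Ppargc1a in 5C-G (adjusted p = 0.0735) and G6pc in 5C-C (0.0883) were lost, as were G6pc in 5C-E on total counts (0.0778) and in limma on both scales, and G6pc in 5C-C in limma on log2(FPKM + 1). Sds had 42 and 30 counts in DMSO and 3 and 2 in 5C-C, a ratio of DMSO to 5C-C of 16.1 per total count, with a 95% exact interval of 6.59 to 51.1 for counting error only. It was called lower (adjusted p = 0.0341, edgeR), and the call was lost when any 1 of those 4 libraries was left out (0.0683 to 0.166).

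Against DMSO 5 members were called in 5C-C (22.1% of all genes in either direction), 3 in 5C-E (6.09%), 2 in 5C-G (5.83%) and 0 in 5C-F (7.4%). For 5C-F against DMSO, 4 members had an unadjusted p under 0.05, where 27.8% of all genes did, and DESeq2 and limma called 0. All comparisons with DMSO share its 2 libraries. The summed macrophage markers were lower than in DMSO in every group but 5C-G, where they were at the DMSO level or above. Of the 7 measured hepatocyte markers, 4 were called lower than in DMSO in each of 5C-G, 5C-C and 5C-E, and 0 in 5C-F or 5C. Alb had log2 fold changes of -1.02, -1.53 and -2.06 in those 3 groups, Cps1 of -2.25, -1.76 and -1.25, and Ttr of -1.30 and -2.09 in 5C-C and 5C-E. Of the stellate cell and fibroblast markers, Acta2 rose over DMSO in 5C-G (1.72) and fell in 5C-F, 5C-C and 5C-E (-1.34, -2.75 and -2.71), Des rose in 5C-G (1.503) and fell in 5C-F (-1.03), Pdgfra rose in 5C-E (1.24), and Lrat rose (4.45) and Col1a2 fell (-1.51) in 5C-F. The cholangiocyte marker Epcam rose in 5C-F, 5C-C and 5C-E (3.34, 3.87 and 3.38), Krt19 in 5C-C and 5C-F (1.71 and 1.10) and Sox9 in 5C-F (1.56), while the endothelial Kdr fell in 5C-G and 5C-F (-1.33 and -1.28). The part of these signals in the members' values was not tested.

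The single 5C-S library gives values without a test. Pck1 (5.07 FPKM) and Pck2 (16.5) lay above both 5C libraries in 5C-S, and Fbp1 (50.6), Tat (27.3), Slc37a4 (18.1), Pcx (24.4) and G6pc (0.995) lay below both. Ppargc1a (0.831) and Sds (0.329) were within the 5C range. The largest log2 difference from 5C was 0.67, for Pck1, and 0 of 9 members passed 2-fold, whereas 18.9% of all genes did so in either direction. With the offset for GC content and gene length the largest was that of Fbp1, at -0.76, and Pck1 stood at 0.47.

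Ordered by group mean, the genes fell into unlike patterns. Tat ran from DMSO (78.4 FPKM) through 5C-F (57.5), 5C (33.0) and 5C-S (27.3) to 5C-G, 5C-E and 5C-C (13.2, 12.9 and 12.7), and only the last 3 overlapped in their libraries. Fbp1 was highest in 5C (71.6), followed by 5C-F (56.3), 5C-S (50.6), DMSO (45.7) and the other 3 omissions (30.2, 28.9 and 25.5 for 5C-G, 5C-C and 5C-E), of which 5C-G and 5C-C overlapped. Pck1 ran from 5C-E (6.38) through 5C-S (5.07), 5C-C (3.98), 5C (3.16) and 5C-F (2.52) to DMSO (1.60) and 5C-G (1.49). The 5C-C libraries overlapped both neighbours in that order, and DMSO overlapped 5C-G. Pck2 and Sds overlapped between all 6 pairs of neighbours, Ppargc1a in 5 of 6, with the gap between DMSO (0.513) and 5C-C (0.167). Pcx was highest in 5C-F (28.0) and lowest in 5C-G (13.5), and neither overlapped its neighbour. Slc37a4 had its highest mean in 5C-F (22.6), overlapping 5C, and its lowest in 5C-G (12.3), overlapping 5C-E. These orders are of FPKM, without the scaling between libraries that the edgeR fit applies. In that fit Slc37a4 lay furthest below 5C in 5C-E, at -0.85 on the log2 scale against -0.71 in 5C-G. Tat also lay furthest below it in 5C-E, at -1.42 against -1.22 in 5C-C.

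The genes whose log2 CPM across the 13 libraries was most like that of Pck1 were Adam23, Dact1, Ptpru, Igf2bp2 and Mboat2 (Pearson r of 0.947 to 0.931). Those most like G6pc were Cptp, Bbox1, 4833439L19Rik, Cyb5r4 and Ppm1a (0.935 to 0.884), and those most like Ppargc1a were Map3k5, Lpin2, Nudt12, Fnbp1l and Fam13a (0.957 to 0.944). No member of the set was among them. These are descriptions over 13 libraries in 7 groups, picked as the highest of 19883 genes.

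The remaining steps and carriers of gluconeogenesis (24 genes, all tested) did not move as a block. Relative to 5C, 2 were higher and 3 lower in 5C-G, 6 higher and 3 lower in 5C-C, and 3 were lower in 5C-E, while 1 was higher in 5C-F. The shares of all genes called higher and lower were 7.47% and 5.64% in 5C-G, 9.65% and 10.5% in 5C-C, 0.654% and 1.31% in 5C-E, and 2.69% and 2.15% in 5C-F. None was called in 5C against DMSO by edgeR, where 1.66% of all genes were higher and 2.89% lower. Slc2a2, the glucose transporter GLUT2 that exports the product, fell in the first 3, with log2 fold changes of -1.89 ± 0.23, -2.08 ± 0.23 and -1.005 ± 0.23. Slc25a13, the aspartate-glutamate carrier, fell in 5C-G (-1.20), 5C-C (-1.45) and 5C-E (-1.06). The glycerol-3-phosphate dehydrogenase Gpd1 rose in 5C-F (1.13). G6pc3, a ubiquitous paralogue of G6pc, rose in 5C-G and 5C-C (1.10 and 1.57), and the shared glycolytic enzymes Eno1 (1.48), Tpi1 (1.30) and Pgk1 (1.23) and the malate dehydrogenase Mdh2 (1.13) rose in 5C-C. Gapdh also rose in 5C-G and 5C-C (1.87 and 2.37), but it was at 2.04 to 13.6 FPKM, and the many near-identical copies of this gene make its counts uncertain. In 5C-F against the mean of the other omissions 5 were higher and 0 lower (3.76% and 2.78% of all genes), among them Slc2a2 (2.46) and the alanine aminotransferase Gpt2 (1.62).

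Among 16 genes of amino acid catabolism, the tyrosine-degrading enzyme Hpd, the tryptophan dioxygenase Tdo2 and Cps1, which is also on the hepatocyte list, were the 3 largest falls in each of 5C-G, 5C-C and 5C-E, with Hpd at -1.70, -3.52 and -3.06. In those groups 5, 4 and 3 genes fell, where 5.64%, 10.5% and 1.31% of all genes fell, and 1, 1 and 0 rose, where 7.47%, 9.65% and 0.654% did. The Sds paralogue Sdsl rose over 5C in 5C-C (1.32) and 5C-F (1.00). In 5C-F against the mean of the other omissions 7 of 16 were higher and 0 lower, against 3.76% and 2.78% of all genes.

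Among 29 tested regulators of the program, 2 rose and 4 fell in 5C-G, 3 rose and 8 fell in 5C-C, 0 were called in 5C-E, and 1 rose and 1 fell in 5C-F. Of all genes, 7.47% rose and 5.64% fell in 5C-G and 9.65% rose and 10.5% fell in 5C-C, so the counts of regulators that rose there were near these shares. In 5C-E 0.654% of all genes rose and 1.31% fell. In 5C-F 2.69% rose and 2.15% fell, so 1 regulator each way was near these shares too. The insulin receptor substrate Irs1 fell in 5C-G, 5C-C and 5C-F (-2.62, -3.84 and -1.70), and the forkhead factor Foxo1 fell in 5C-G and 5C-C (-1.47 and -1.53). The repressor SHP (Nr0b2) rose in 5C-C (2.98). Trib3 rose in 5C-C and 5C-F (1.45 and 1.30). Cebpa was the only regulator called in 5C against DMSO (-1.04), where 2.89% of all genes fell and 1.66% rose. In 5C-F against the mean of the other omissions 3 were higher and 1 lower (3.76% and 2.78% of all genes), with Klf15 (1.51) and Hnf4a (1.09) higher and Nr4a1 lower (-1.07).

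Of 16 genes known to respond to cAMP, 1 rose and 1 fell without forskolin, where 2.69% of all genes tested rose and 2.15% fell. The fall was in Pde4b, a phosphodiesterase that degrades cAMP, with a log2 fold change of -1.40 ± 0.32 (adjusted p = 0.0117, edgeR). It had 0.261 to 0.496 FPKM in 5C-F, against 0.965 to 1.19 FPKM in 5C and 0.526 to 0.616 FPKM in DMSO. Igfbp1 rose (1.10 ± 0.19, adjusted p = 0.00248, edgeR), from 992 to 1157 FPKM in 5C to 2016 to 2274 FPKM in 5C-F. In 5C against DMSO the kinase Pdk4 was the only one called (1.18 ± 0.30, adjusted p = 0.0206, edgeR). There 1.66% of all genes rose and 2.89% fell. Against the mean of the other omissions, Pde4b (-1.98) and Pde4d (-1.09) were lower and Igfbp1 (1.81) was higher in 5C-F, with 1 higher and 3 lower in all, where 3.76% and 2.78% of all genes were.

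Of 15 genes of glycolysis and glucose use, the opposing direction, 4, 2 and 1 fell and 0, 3 and 0 rose in 5C-G, 5C-C and 5C-E, and 0 were called in 5C-F against 5C by edgeR. The shares of all genes that fell were 5.64%, 10.5% and 1.31% in those 3 groups, and 7.47%, 9.65% and 0.654% rose. In 5C-F against 5C 2.69% of all genes rose and 2.15% fell. In 5C-F against the mean of the other omissions 4 were higher and 0 lower, among them liver pyruvate kinase (Pklr, 1.38). There 3.76% of all genes were higher and 2.78% lower. Markers of the kidney proximal tubule, the other gluconeogenic epithelium, summed to 1.03 to 3.52 FPKM over the libraries, nearly all of it from Lrp2, which fell in 5C-C and 5C-F against 5C (-1.28 and -1.37). The more specific Slc34a1 and Slc5a2 had at most 2 and 4 counts in any library.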

How the data were processed

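The authors prepared the libraries with a kit that does not mark strand, sequenced them paired-end on a NovaSeq (Illumina), mapped the reads to GRCm39 and deposited raw counts and FPKM per gene. The submitters' processing notes name featureCounts, Subread and DESeq2 without versions. Which annotation release was counted, and whether by strand, is not given in the sources used here. Deposited FPKM matched count divided by 1 length per gene and by the column total, within 0.2%, for 27140 of 27141 genes. Columns name the group but not which sample, so libraries were lettered in column order. No column of per-sample values was left unused.

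Counts were tested with edgeR 4.0.16 in R 4.3.3 (TMM, filterByExpr with a minimum count of 10, quasi-likelihood test). All 13 libraries entered 1 fit of group means with 6 residual degrees of freedom, and p-values were adjusted over 19884 genes (Benjamini-Hochberg). Intervals of log2 differences are 95%. The study's methods name DESeq, which edgeR replaced here. The code was tested on simulated data. Alternatives were DESeq2 1.42.0, limma 3.58.1 on log2(FPKM + 1) and log2(FPKM + 0.1), other scalings and filters, an offset for GC content and length, adjusted p alone, fits of only the groups compared, each library left out and, added after seeing the data, a block on the columns' running number. 5C-S, with 1 library, was not tested. Sequencing depth limits Sds, G6pc and Ppargc1a, and counting intervals cover counting error only, because reads carry no molecular identifiers.

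The members and lists were chosen with earlier results of these data known. Named genes were the 9 members, up to 3 called genes with the largest change per list and comparison (their values in other comparisons, and Col1a2, Eno1, Tpi1, Pgk1 and Mdh2, were added after values were seen), and the 5 genes most correlated with Pck1, G6pc and Ppargc1a. Of the listed genes, Tf, Clec4g and Slc22a6 were not matched by symbol. Exon overlaps, start sites and sequences came from GENCODE M39 on GRCm39 and the RefSeq table on GRCm38.p6. Some genes of these lists are counted but not reported here by name.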

Additional observations from a re-analysis of the deposited data

How the results depend on the processing

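Over the 64 differences of single members, 987 alternative values were computed: 914 kept direction and call, 40 lost the call, 21 gained one and 12 turned. The 12 that turned were near 0 or rested on few counts. They were Pck2 in 5C against DMSO without 5C A (0.020; -0.21 without 5C B), Pck2 in 5C-E against 5C with the GC and length offset (-0.046), without 5C A (-0.01) and without 5C-E B (-0.11; 0.32 without 5C-E A), G6pc in 5C against DMSO without DMSO B (0.20; -0.79 without DMSO A), and, in 5C-F against 5C, Ppargc1a with the offset (0.33), without 5C A (0.18) and without 5C-F B (0.16; -0.27 without 5C-F A), Slc37a4 with the offset (-0.032), and Sds on log2(FPKM + 0.1) (-0.019) and without 5C-F B (-1.93; 1.35 without 5C-F A). The last was Sds in 5C-F against the mean of the other omissions without 5C-F B (-0.53; 2.75 without 5C-F A). The cause was not tested.

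The number of members called moved by more than 1.5 times, or to or from 0, as follows. With the adjusted p alone it was 2 for 5C against DMSO, 6 for 5C-G against 5C, 1 for 5C-F against 5C and 5 for 5C-E against DMSO. With the offset it was 5 for 5C-G against 5C. With limma on log2(FPKM + 1) and log2(FPKM + 0.1) it was 1 and 2 for 5C-F against the mean of the other omissions, 1 and 1 for 5C-G against DMSO, and 1 with the larger pseudocount for 5C-C against DMSO. In the fit of only the groups compared it was 1 for 5C-G against DMSO. Leaving out 1 library gave 2 to 4 members for 5C-F against the mean of the other omissions, 1 to 2 for 5C-G against DMSO and 2 to 3 for 5C-C against DMSO. Smaller moves were these. With the adjusted p alone it was 7 for 5C-C against DMSO, 6 for 5C-F against the mean of the other omissions, 4 for 5C-C against 5C, and 3 for 5C-E against 5C and for 5C-G against DMSO. For 5C-G against 5C it was 4 on total counts, without a filter, with 10 counts in every library and in limma on log2(FPKM + 0.1), and 2 on log2(FPKM + 1). For 5C-C against 5C it was 4 on total counts, without a filter and on log2(FPKM + 0.1), and 2 on log2(FPKM + 1). For 5C-C against DMSO it was 4 with 10 counts in every library, on log2(FPKM + 0.1) and in the fit of only the groups compared. For 5C-E against DMSO it was 4 with the offset and 2 on total counts and in limma on both scales, and on total counts it was 3 for 5C-F against the mean of the other omissions. Leaving out 1 library gave 3 to 4 for 5C-G against 5C, 2 to 4 for 5C-C against 5C and 2 to 3 for 5C-E against DMSO. Scaling by total counts alone moved the median log2 difference of all genes to -0.15 in 5C-C against 5C and to 0.16 in 5C-E against DMSO, from 0 and 0.01. The columns carry running numbers 1 and 2, which the labels do not tie across groups. Same-numbered libraries did not deviate together: over 15 pairs of groups the correlation across genes of the differences between libraries 1 and 2 ran from -0.034 to 0.10. A replicate block on that number, added after seeing the data, left the number of members called as it was in all 10 comparisons (3 for 5C-G against 5C and 4 for 5C-F against the mean of the other omissions, for example).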
